A study of Mus musculus with 4 samples.

Results

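Transcripts of 25 nuclear receptors and 5 of their coregulators were followed in mouse kidney after cisplatin. The 30 genes were taken by symbol from the deposited table of read counts, which holds 29190 genes, and each symbol had a single row. The study treated C57 mice, male and 8 weeks old, with a single agent, and the labels give no genotype. The cisplatin group received 30 mg/kg body weight and the control group received physiological saline, with 2 libraries of whole kidney in each. The protocol divides 18 mice over saline and cisplatin for 24 h or 48 h, and the labels do not tell at which time the sequenced kidneys were taken. Cisplatin, a platinum-based cancer drug, damages DNA and is toxic to renal tubules. The design text calls the libraries of a group biological replicates, but whether a library holds 1 mouse or a pool is not given, so the p-values measure the spread between these libraries.

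Nuclear receptors are transcription factors that bind DNA through zinc fingers, and many of them are switched by a small lipophilic ligand such as retinoic acid, thyroid hormone, a steroid, a fatty acid or a bile acid. Several pair with a retinoid X receptor on DNA. With ligand they recruit coactivators of the p160 family, and without it many hold a corepressor complex built on NCoR. Orphan receptors have no established hormone, and those of the NR4A family are controlled mainly by how much of them is made. In the kidney, receptors of this family set transport in the tubule, among them the mineralocorticoid receptor in the distal nephron and the bile acid receptor FXR in tubule epithelium.

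The libraries held 20662475 to 27122403 counts, and the 30 genes held 0.117 and 0.118% of these in cisplatin and 0.146 and 0.152% in saline. Levels below, written CPM, are counts relative to the library total after TMM, which corrects each library for its composition. Log2 fold changes are positive where cisplatin was higher. Their standard error (SE) was derived from the test, as the absolute log2 fold change over the square root of its F statistic. The test is edgeR's quasi-likelihood test over 17419 genes, and a gene is called at a Benjamini-Hochberg (BH) adjusted p under 0.05. It called 73.6% of all tested genes, 37.2% higher and 36.4% lower, and with library size alone as the scaling 52.3% were higher and 24.2% lower. The median log2 fold change of all tested genes was 0.04 with TMM and 0.41 with library size alone, so directions are relative to that level. Kidney markers were abundant, and all 6 proximal tubule markers fell, from 13980 and 14190 summed CPM in saline to 2350 and 2314 in cisplatin. All 6 markers of thick limb and distal tubule fell (7523 and 7607 to 2321 and 2238), and in the collecting duct 5 of 6 fell and 1 rose (325.2 and 323.1 to 155.2 and 165.8). All 5 podocyte markers rose (366.9 and 361.9 to 551.6 and 582.8), as did 6 of 7 for fibroblasts and mural cells (342.5 and 363 to 1161 and 1164), while for endothelium 4 rose and 2 fell of 7, or 5 and 0 with library size alone (627.7 and 627 to 763.5 and 765.6). Macrophage and monocyte markers rose in 4 and fell in 1 of 7 cases, or 5 and 0 with library size alone (70.4 and 74.5 to 161 and 172). All 3 tested neutrophil markers rose (1.24 and 0.697 to 16.9 and 15.5), with Ly6g and Mpo at 0 counts in saline. Lymphocyte markers summed to at most 5.44 CPM, with 2 of 5 tested genes higher. Adrenal cortex markers summed to at most 3.88 CPM, of which Star was the only gene tested and rose, and Cyp11a1, Cyp11b1 and Cyp21a1 had 0 counts in saline. Adipocyte markers summed to at most 6.75 CPM, of which Cidec was the only gene tested and rose, and Cfd had 0 counts in saline and Lep in cisplatin. In whole tissue, fewer cells of a type and less RNA per cell cannot be told apart, and the part of these marker shifts in the results below was not tested.

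All 30 genes passed the filter on low counts. After cisplatin 8 rose and 16 fell, with a median log2 fold change of -0.26, against 37.2 and 36.4% of all genes, and 6 did not pass. With library size alone 11 rose and 13 fell, with a median of 0.10 against 0.41 for all genes. At least a 2-fold change was seen for 5 that rose and 5 that fell, where all genes gave 19.2 and 16.1%, and without cisplatin replicate 2 the rises past that line numbered 3. The risers were Nr4a1, Nr4a2, Nr4a3, Nr2f1 and Rarg, and the fallers were Thrb, Nr1h4, Hnf4g, Esr1 and Nr3c2. In edgeR's glmTreat test against a 2-fold change, which passes 12.4% of all genes upward and 12% downward, the 3 NR4A genes and the same 5 fallers passed. For 28 of the 30 genes the groups did not overlap in TMM-scaled CPM, against 86.3% of all tested genes. Cisplatin was higher in 10 of them and lower in 18, where all tested genes gave 44.7 and 41.7%. This split depends on the scaling. In the deposited FPKM values cisplatin was higher in 12 and lower in 13, and 5 overlapped, with no share over all genes taken.

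**Figure D1:**
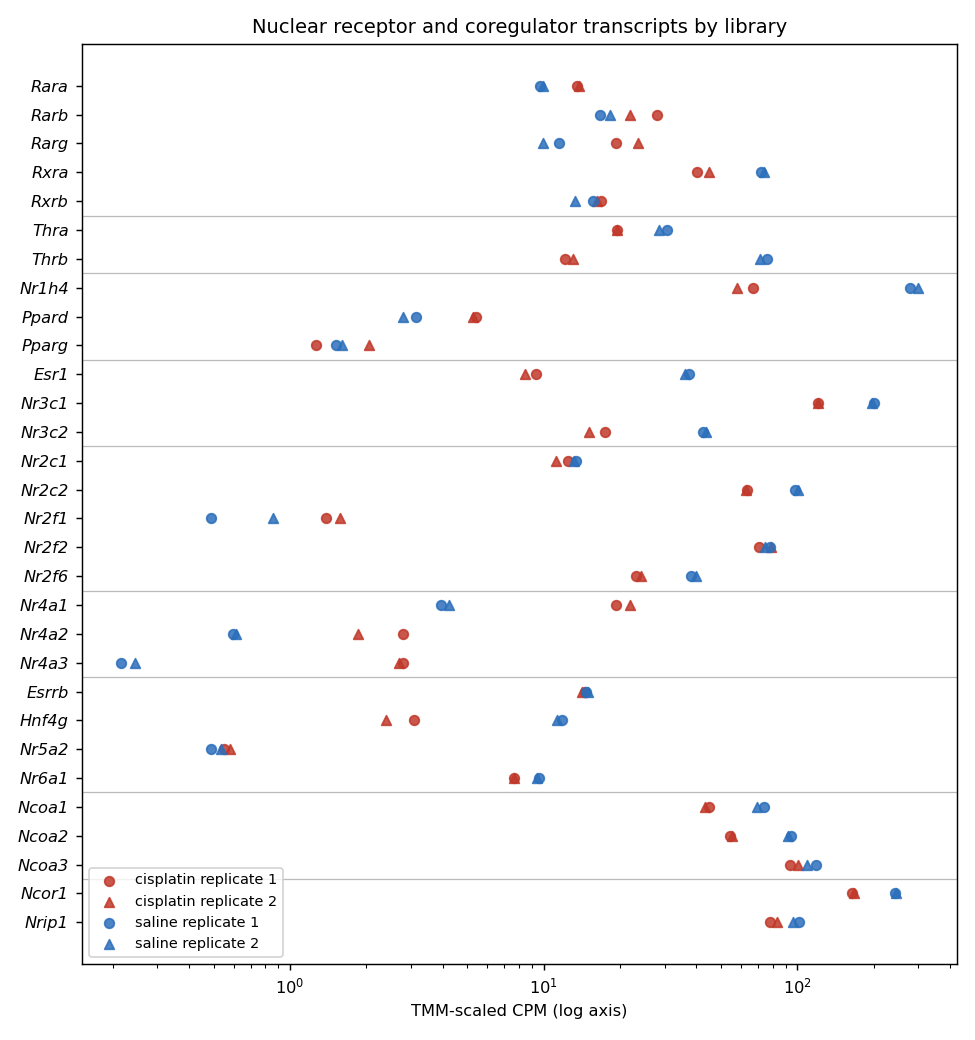
Level of each gene in each library, as TMM-scaled CPM on a log axis, grouped by role, with circles for replicate 1 and triangles for replicate 2 of the cisplatin (red) and saline (blue) groups. The groups lie furthest apart in the NR4A genes (cisplatin right) and in Thrb, Nr1h4, Esr1 and Hnf4g (cisplatin left), and they overlap in Nr2f2 and Pparg.

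The NR4A receptors, orphan receptors of the immediate early class, rose in all 3 cases. Nr4a1 (Nur77; ENSMUSG00000023034.6, chr15:101254269-101274795, plus strand, GRCm38) stood at 3.95 and 4.22 CPM in saline and 19.3 and 22.0 CPM in cisplatin. Its log2 fold change was 2.33 (SE 0.13; BH-adjusted p = 4.19e-12 in edgeR), which is 5.04-fold. Nr4a2 (Nurr1; ENSMUSG00000026826.11, chr2:57106830-57124003, minus strand) had 11 and 15 counts in saline and 66 and 48 in cisplatin. That is 0.595 and 0.615 CPM against 2.78 and 1.85 CPM, a log2 fold change of 1.92 (SE 0.35; adjusted p = 7.38e-05 by the same method). Both cisplatin libraries were above both saline libraries, with replicate 1 the higher of the cisplatin pair. Nr4a3 (Nor1; ENSMUSG00000028341.7, chr4:48045153-48086447, plus strand) had 4 and 6 counts in saline and 66 and 70 in cisplatin, or 0.216 and 0.246 against 2.78 and 2.7 CPM. The change was 3.53 on the log2 scale (SE 0.39; BH-adjusted p = 1.12e-07 in edgeR), the largest of the 30 genes in that fit, from a saline level that rested on few counts. On log2(FPKM + 0.1) it was 1.78, below the 2.49 of Nr4a1. Per length, in the deposited FPKM values, Nr4a1 made up 88.8% of the summed NR4A level in each saline library and 86.4 and 90.2% in the cisplatin libraries. The groups overlapped in that share, while the share of Nr4a3 went from 2.04 and 2.59% to 5.38 and 4.73% without overlap. Its saline shares are imprecise, as they come from FPKM values of 0.02 and 0.03 given to 2 decimals.

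Because these 3 genes moved together, the bases before their start sites are shown, from RefSeq's table on build GRCm38.p6, which had entries for 25 of the 30 genes. Capitals mark the core of the cyclic AMP response element, TGACG, read on either strand. The stretches are chr15:101266596-101266845 (plus strand, before an internal start of the gene's span in GENCODE M21), chr2:57124004-57124253 (minus strand) and chr4:48045055-48045152 (plus strand, ended where GENCODE M21 begins an exon).
Nr4a1: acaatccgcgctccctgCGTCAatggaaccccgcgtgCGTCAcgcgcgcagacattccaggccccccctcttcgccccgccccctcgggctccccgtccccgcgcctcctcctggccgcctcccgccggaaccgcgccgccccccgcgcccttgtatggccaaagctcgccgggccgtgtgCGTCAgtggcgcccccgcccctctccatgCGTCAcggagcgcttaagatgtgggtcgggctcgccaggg
Nr4a2: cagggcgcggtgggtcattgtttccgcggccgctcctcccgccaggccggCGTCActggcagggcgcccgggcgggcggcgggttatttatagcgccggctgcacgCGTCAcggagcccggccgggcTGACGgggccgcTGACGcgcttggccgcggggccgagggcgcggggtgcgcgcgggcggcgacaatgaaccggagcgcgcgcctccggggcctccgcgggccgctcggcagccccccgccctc
Nr4a3: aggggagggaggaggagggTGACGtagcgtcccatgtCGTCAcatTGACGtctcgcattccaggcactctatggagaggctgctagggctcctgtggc
Each of the 3 windows of 250 bases before the start site held 4 matches, the last of Nr4a3 lying past the printed end. Only windows with a match are shown. Of all 32851 promoter windows 17.8% held at least 1 match and 0.137% held 4 or more. The 3 genes were picked for their rise and the count of 4 is the one they held, so that share is no test. Among the 41 windows of members 10 held a match. The other members with a match were Esrrb, Nr2c1, Nr2c2, Nr6a1, Rara, Rxrb and Thrb. No member held the full element TGACGTCA, which contains that core and was in 1.55% of windows. A match describes letters in the window and does not show binding.

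The retinoic acid receptors rose in all 3 cases, while their partner Rxra fell. Rarg (ENSMUSG00000001288.12, chr15:102234938-102257517, minus strand), the receptor best known from epithelium, stood at 11.5 and 9.92 CPM in saline and 19.4 and 23.5 CPM in cisplatin. Its log2 fold change was 1.01 (SE 0.12; BH-adjusted p = 3.04e-07 in edgeR), just past the 2-fold line. Rarb (ENSMUSG00000017491.8, chr14:16430839-16819156, minus strand) stood at 16.7 and 18.2 CPM in saline and 28 and 21.9 CPM in cisplatin. Its groups did not overlap, and its log2 fold change was 0.51 (SE 0.11; adjusted p = 0.000485 by the same method). Exons of Rarb share 1793 bases with Top2b on the opposite strand, which had 2626 to 3720 counts a library, so the Rarb level is uncertain if counting ignored strand. Rara went from 9.69 and 9.92 to 13.6 and 13.8 CPM, a log2 fold change of 0.48 (SE 0.12; BH-adjusted p = 0.00109 in edgeR). All 3 changes were larger than the spread within groups, and with library size alone they were 0.84 for Rara, 0.87 for Rarb and 1.37 for Rarg.

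Rxra (ENSMUSG00000015846.12, chr2:27676440-27762957, plus strand), the shared partner of the retinoid, thyroid hormone, PPAR and FXR receptors, fell from 72.2 and 74.2 to 40.3 and 44.9 CPM. This gave a log2 fold change of -0.78 (SE 0.07; BH-adjusted p = 2.15e-09 in edgeR), and -0.42 with library size alone. Rxrb stood at 15.6 and 13.3 CPM in saline and 16.8 and 16.2 CPM in cisplatin and did not pass (log2 fold change 0.20, SE 0.11, adjusted p = 0.112 by the same method). It passed as higher with upper-quartile scaling, library size alone, FPKM and without saline replicate 1 (adjusted p = 0.0417). A share within a family does not depend on scaling between libraries. Per length, Rxra fell from 71.2 and 75% of the RXR pair in saline to 56.3 and 59.6% in cisplatin. Rarb remained the most abundant RAR in each library, at 49.3 and 53.3% in saline and 50.9 and 41.6% in cisplatin. With 2 libraries a group the smallest two-sided exact permutation p of a share is 0.333, and that of Rxra was 0.333.

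The retinoic acid response element of the Rarb promoter is printed because Rarb, a receptor for retinoic acid, is also among its best-known target genes. The stretch is chr14:16575506-16575535 (minus strand, GRCm38.p6, RefSeq), with capitals from the start of one GTTCA to the end of the next, 6 bases apart.
Rarb: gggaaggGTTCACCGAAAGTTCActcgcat
The match began 52 bases before the start site. It was in 0.067% of all promoter windows, and Rarb was the only member that held it. Rarb was picked for this known element, so its match and that share are no test. The DR5 repeat of AGGTCA, also searched, was in 0 windows of members. GENCODE M21 annotates an exon over this stretch.

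Both thyroid hormone receptors fell, Thrb by far more than Thra. Thrb (ENSMUSG00000021779.14, chr14:17660261-18038090, plus strand) stood at 75.65 and 71.3 CPM in saline and 12.1 and 13.0 CPM in cisplatin. Its log2 fold change of -2.55 (SE 0.08; BH-adjusted p = 3.46e-16 in edgeR), a 5.84-fold fall, was the largest fall of the 30 genes under TMM. Thra (ENSMUSG00000058756.11, chr11:98740638-98769006, plus strand) fell from 30.6 and 28.4 to 19.5 and 19.6 CPM, a log2 fold change of -0.59 (SE 0.09; adjusted p = 8.43e-06 by the same method). The pair thus changed its order per length. The ratio of Thra to Thrb in FPKM was 0.839 and 0.826 in the saline libraries and 3.34 and 3.12 in the cisplatin libraries. Thra shares 263 exon bases with Nr1d1 on the opposite strand, which had 513 to 768 counts a library.

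Of the fatty acid and bile acid sensors, Nr1h4 fell, Ppard rose and Pparg did not pass. Nr1h4 (FXR; ENSMUSG00000047638.13, chr10:89454234-89533585, minus strand), the bile acid receptor, was the most abundant of the 30 genes per length in both groups. It stood at 278 and 298 CPM in saline and 67.1 and 57.7 CPM in cisplatin, a log2 fold change of -2.21 (SE 0.07; BH-adjusted p = 6.19e-16 in edgeR). Its share of the summed FPKM of the 30 genes was 38.2 and 40.3% in saline and 17.0 and 14.7% in cisplatin. Ppard (ENSMUSG00000002250.13, chr17:28232700-28301474, plus strand), the most widely expressed PPAR, rose from 3.14 and 2.79 to 5.4 and 5.28 CPM (log2 fold change 0.86, SE 0.19, adjusted p = 0.000515 by the same method). Pparg, best known from fat cells, stood at 1.51 and 1.6 CPM in saline and 1.26 and 2.04 CPM in cisplatin, so the groups overlapped (log2 fold change 0.09, SE 0.31). Its direction turned without cisplatin replicate 2, to -0.30.

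Nr1h4 and Thrb, which fell the most, each held the letters GTTAAT, a part of the site of the tubule factor HNF1, close to a start site. Nr1h4 is shown at chr10:89506659-89506758 (minus strand) and Thrb at chr14:17660904-17660933 (plus strand), both from RefSeq on GRCm38.p6, with the match in capitals and Thrb cut short because GENCODE M21 annotates an exon there.
Nr1h4: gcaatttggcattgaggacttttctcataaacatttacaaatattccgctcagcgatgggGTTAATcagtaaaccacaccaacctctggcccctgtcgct
Thrb: tgacgcggcgggATTAACtttgcatggcta
The matches began 40 bases before the Nr1h4 start and 44 bases before the Thrb start, the latter on the other strand. GTTAAT was in 3 of the 41 windows of members and in 6.43% of all windows. The remaining member with a match was Nr5a2, which did not pass. Esr1 and Nr3c2, which also fell at least 2-fold, held no match, and Hnf4g had no entry. A link between the motif and the falls was not tested. This motif was chosen after the fold changes had been seen.

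All 3 steroid receptors fell. Esr1 (ENSMUSG00000019768.14, chr10:4611593-5005614, plus strand), the estrogen receptor alpha gene, stood at 37.3 and 36.2 CPM in saline and 9.32 and 8.48 CPM in cisplatin. This amounted to a log2 fold change of -2.05 (SE 0.10; BH-adjusted p = 3.55e-13 in edgeR). Nr3c2 (ENSMUSG00000031618.11, chr8:76899442-77245012, plus strand), the mineralocorticoid receptor through which aldosterone acts, stood at 42.6 and 43.6 CPM in saline and 17.5 and 15.1 CPM in cisplatin. The log2 fold change was -1.40 (SE 0.09; adjusted p = 3.72e-11 by the same method). Nr3c1 (ENSMUSG00000024431.12, chr18:39410545-39519421, minus strand), the glucocorticoid receptor, stood at 199.9 and 198 CPM in saline and 120.7 and 120.2 CPM in cisplatin, a log2 fold change of -0.72 (SE 0.06; BH-adjusted p = 6.6e-10 in edgeR). The fall was larger in Nr3c2 than in Nr3c1, and the ratio of Nr3c1 to Nr3c2 in FPKM went from 4.44 and 4.29 to 6.52 and 7.51. With library size alone the 3 values were -1.68 for Esr1, -1.04 for Nr3c2 and -0.36 for Nr3c1.

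The orphan receptors of the NR2C and NR2F groups moved in different directions. Nr2f1 (COUP-TFI; ENSMUSG00000069171.11, chr13:78188973-78199757, minus strand) had 9 and 21 counts in saline and 33 and 41 in cisplatin, or 0.487 and 0.86 against 1.39 and 1.58 CPM. Its log2 fold change was 1.10 (SE 0.37; BH-adjusted p = 0.0128 in edgeR). It did not pass without cisplatin replicate 2 (adjusted p = 0.103), without saline replicate 1 (0.106), with DESeq2 (0.14) or with FPKM at a pseudocount of 0.1 (0.0636, limma). It shares 123 exon bases with the antisense gene A830082K12Rik, which had 12 to 27 counts a library. Nr2f2 (COUP-TFII), a factor of veins and stroma and far more abundant, shares 643 exon bases with B130024G19Rik on the opposite strand and overlapped between groups, with 77.9 and 74.8 CPM in saline and 70.5 and 78.6 CPM in cisplatin (log2 fold change -0.03, SE 0.06). Nr2f2 passed as higher with library size alone (0.33, BH-adjusted p = 7.04e-05 in edgeR). That is below the median of 0.41 for all tested genes with this scaling, where 52.3% were called higher. Of 7 fibroblast and mural cell markers 6 rose with TMM (median log2 fold change 1.5) and 7 with library size alone (median 1.87). A link to the Nr2f2 level was not tested. Nr2f6 fell from 38.1 and 40.0 to 23.1 and 24.3 CPM (log2 fold change -0.72, SE 0.08), and it shares 1622 exon bases with Ocel1 on the opposite strand. Nr2c2 (TR4) fell from 98.3 and 100.8 to 63.1 CPM in each cisplatin library (log2 fold change -0.66, SE 0.05), and it shares 4590 exon bases with Mrps25 on the opposite strand. Its near relative Nr2c1 (TR2) stood at 13.4 and 13.2 CPM in saline and 12.5 and 11.2 CPM in cisplatin and did not pass.

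Of the remaining orphan receptors, Hnf4g fell clearly. Hnf4g (ENSMUSG00000017688.12, chr3:3508030-3658052, plus strand), a relative of the epithelial factor HNF4 alpha, stood at 11.8 and 11.3 CPM in saline and 3.08 and 2.39 CPM in cisplatin. The change on the log2 scale was -2.08 (SE 0.17; BH-adjusted p = 9.93e-10 in edgeR). Nr6a1 (germ cell nuclear factor) stood at 9.58 and 9.38 CPM in saline and 7.68 and 7.67 CPM in cisplatin. It passed narrowly (log2 fold change -0.30, adjusted p = 0.0481 by the same method), and it missed the threshold under 13 of the 14 alternatives that were run, the exception being relative log expression scaling. Esrrb, an estrogen-related receptor, stood at 14.7 and 15 CPM in saline and 14.6 and 14.1 CPM in cisplatin and did not pass. Nr5a2 (LRH-1), known from liver and pancreas, was near the detection limit with 9 and 13 counts in saline and 13 and 15 in cisplatin.

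The coregulators fell by modest amounts that depended on the scaling. The p160 coactivator Ncoa2 (ENSMUSG00000005886.12, chr1:13139105-13374083, minus strand) fell from 94.2 and 92.1 to 54.1 and 55.5 CPM, a log2 fold change of -0.77 (SE 0.06; BH-adjusted p = 2.21e-10 in edgeR). Ncoa1 (ENSMUSG00000020647.9, chr12:4247362-4477182, minus strand) fell from 73.9 and 69.4 to 44.9 and 43.2 CPM, a log2 fold change of -0.70 (SE 0.06; adjusted p = 6.11e-09 by the same method). Ncoa3 (ENSMUSG00000027678.15, chr2:165992636-166073242, plus strand) stood at 119 and 109 CPM in saline and 93.6 and 100.4 CPM in cisplatin, and its call as lower (log2 fold change -0.23) was lost with upper-quartile scaling and turned to 0.14 with library size alone. The corepressor Ncor1 (ENSMUSG00000018501.15, chr11:62316426-62458541, minus strand) fell from 243.7 and 245.1 to 163.8 and 167.6 CPM (log2 fold change -0.56, SE 0.06; -0.19 with library size alone). Ncoa3 shares 154 exon bases with Sulf2 on the opposite strand, which rose from 223 and 272 counts to 848 and 909. Nrip1 (RIP140; ENSMUSG00000048490.11, chr16:76287400-76373827, minus strand), which represses metabolic genes with ligand-bound receptors, stood at 102 and 96.5 CPM in saline and 78.0 and 83.3 CPM in cisplatin. It was called lower with TMM (log2 fold change -0.30), and stood at 0.07 with library size alone, where it did not pass. Shares within the p160 family do not carry this limit. Per length, Ncoa3 went from 42.8 and 41.7% of the family in saline to 49.9 and 51.8% in cisplatin, and Ncoa2 from 29.9 and 31.1% to 25.5 and 25.3%.

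**Figure D2:**
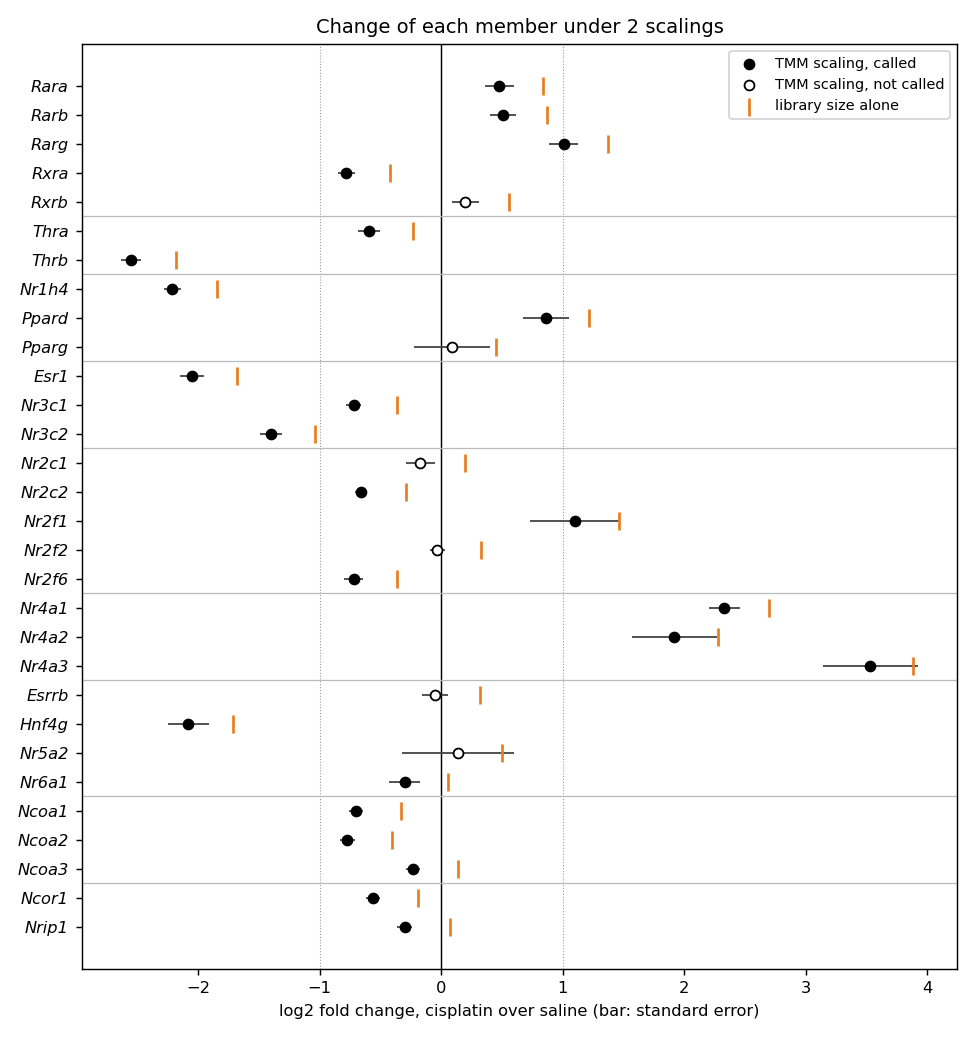
Log2 fold change of each gene, cisplatin over saline, with its standard error (filled points were called by edgeR, open points were not), beside the value with library size alone (orange bars). The NR4A genes, Rarg, Nr2f1, Thrb, Nr1h4, Esr1, Hnf4g and Nr3c2 lie past a 2-fold change (dotted lines) on both scalings, while Ncoa3, Nrip1, Nr6a1, Nr2c1, Nr2f2 and Esrrb change sign.

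**Figure D3:**
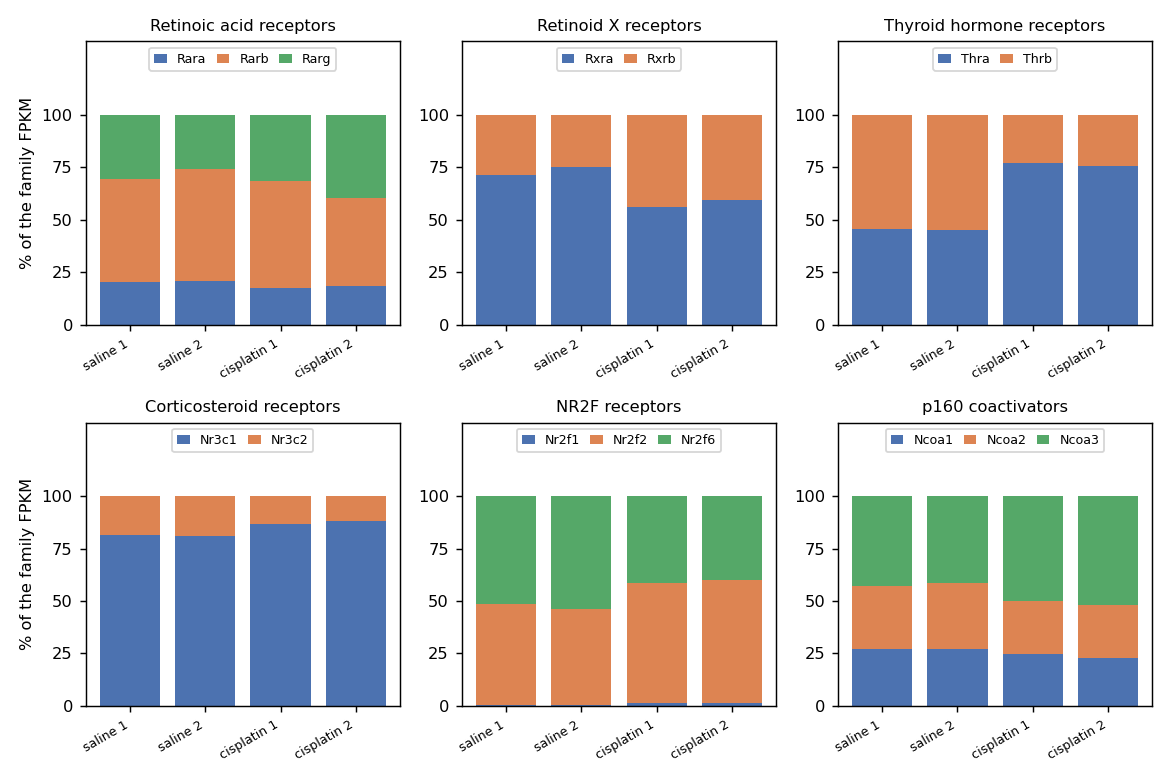
Makeup of 6 families as the percentage of each family's summed FPKM in each library (stacked bars). The thyroid hormone receptor panel shows Thrb at 54.4 and 54.8% in saline and 23.0 and 24.2% in cisplatin, and the RXR panel shows Rxrb at 28.8 and 25% in saline and 43.7 and 40.4% in cisplatin.

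Ordered per length by mean FPKM, Nr1h4 (83.6 in saline, 21.8 in cisplatin) and Nr3c1 (17.5 and 12.8) were the highest of the 30 genes in both groups. Thrb went from rank 10 to rank 21 and Nr4a1 from rank 23 to rank 8. Rarg went from rank 20 to rank 13, and Esr1 from rank 17 to rank 24. The lowest levels, under 0.5 FPKM in each group mean, were those of Nr4a2, Nr4a3, Nr2f1 and Nr5a2.

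The other genes of the pathway were taken from 6 lists of 111 distinct genes, 11 of which stand in more than 1 list, and their counts are to be read against 37.2% of all tested genes called higher and 36.4% called lower. Of 24 other nuclear receptors 18 were tested, and 14 fell, 1 rose and 3 missed the threshold (median log2 fold change -1.20) against 0.04 for all genes. Esrrg, an orphan receptor of oxidative metabolism, fell from 123.7 and 118.9 to 17.8 and 18.3 CPM (log2 fold change -2.75, SE 0.06). Hnf4a, which defines proximal tubule epithelium, fell from 725 and 693 to 120.1 and 118.5 CPM (log2 fold change -2.57, SE 0.06). Its far less abundant relative Hnf4g fell less (log2 fold change -2.08, SE 0.17). Ppara, the fatty acid receptor, had a log2 fold change of -2.08 (SE 0.07) where Ppard rose. The single riser, named after its value was seen, was Nr1h2, a liver X receptor (log2 fold change 0.34, SE 0.11), and it did not pass without cisplatin replicate 2, without saline replicate 2 or with DESeq2. Nr0b2 (SHP), an atypical receptor and FXR target, was low, with 0.812 and 0.942 CPM in saline and 0.717 and 0.308 in cisplatin, and did not pass. In these libraries all 6 proximal tubule markers fell as well, and their part in these falls was not tested.

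All 23 other coregulators were tested, and 10 rose, 8 fell and 5 did not pass (median log2 fold change 0.12), where 37.2% of all tested genes rose and 36.4% fell, shares near those of the list. With library size alone 15 rose and 5 fell, where 52.3% of all tested genes rose and 24.2% fell. Ppargc1a (PGC-1 alpha), the coactivator of mitochondrial and FXR and PPAR programmes, fell from 132.5 and 133.7 to 44.4 and 48.2 CPM (log2 fold change -1.52, SE 0.06). Its relative Pprc1 rose from 4.6 and 4.55 to 19.4 and 21.3 CPM (log2 fold change 2.15, SE 0.13). Ncoa7, whose kidney form is tied to the proton pump, fell from 192.5 and 194.7 to 49.9 and 47.4 CPM. The acetyltransferase Kat2b fell from 128.8 and 128.7 to 74.8 and 69.1 CPM.

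Genes that supply, move or remove ligands changed in both directions by large amounts. Of 24 listed 21 were tested, and 12 rose and 9 fell (median log2 fold change 0.56, and also 0.56 with the genes at 0 in saline set at their bound). Aldh1a2, which makes retinoic acid, rose from 3.41 and 3.89 to 59.3 and 62.0 CPM, a log2 fold change of 4.04 (SE 0.11; BH-adjusted p = 2.39e-17 in edgeR). Dhrs3, which turns retinal back to retinol, fell from 119.6 and 118.7 to 26.2 and 31.8 CPM. Other retinoid genes of the list, named after their values were seen, moved in both directions. Cyp26b1, which breaks down retinoic acid, rose from 4.76 and 5.65 to 22.8 and 24.4 CPM (log2 fold change 2.17, SE 0.12). The synthesis gene Rdh10 was called lower with TMM (log2 fold change -0.31, SE 0.07) and stood at 0.05 with library size alone. Lrat, which stores retinol as esters, fell (log2 fold change -3.66, SE 0.22), as did the retinol importer Stra6 (log2 fold change -3.15, SE 0.42), while the dehydrogenases Aldh1a1 (1.57) and Aldh1a3 (1.51) rose. On the thyroid hormone side, the activating deiodinase gene Dio1 fell from 85.7 and 82.3 to 7.34 and 8.18 CPM (log2 fold change -3.43, SE 0.08). Slc16a10, a thyroid hormone and aromatic amino acid transporter, fell from 92.2 and 86.8 to 12.8 and 13.1 CPM. The other activating deiodinase, Dio2, and the inactivating one, Dio3, were named after their values were seen. Dio2 was called higher from few counts, with 1 and 4 in saline and 19 and 14 in cisplatin (BH-adjusted p = 0.00185 in edgeR). Dio3 had 0 counts in both saline libraries and 27 and 36 in cisplatin. Against a floor of 3 counts over the saline group Dio3 was at least 18.1-fold higher. Of the enzymes that convert glucocorticoids, also named afterwards, Hsd11b1 rose from 95.2 and 94.4 to 150.5 and 129.5 CPM. Hsd11b2, which shields the mineralocorticoid receptor from cortisol-type steroids, fell from 25.1 and 19.6 to 8.65 and 10.1 CPM.

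Textbook target genes of these receptors changed in both directions. Among 16 tested glucocorticoid and mineralocorticoid targets 10 rose and 6 fell (median log2 fold change 1.04), where 37.2% of all tested genes rose and 36.4% fell, so the share that fell was near that of all genes. Mt2, a metallothionein, rose from 6.98 and 9.67 to 171 and 183 CPM, and Zbtb16, a transcription factor, from 7.04 and 6.39 to 53.6 and 62.7 CPM. Slc12a3, the thiazide-sensitive salt transporter and also a distal tubule marker, fell from 303.6 and 312.6 to 80.2 and 75.3 CPM, and Pck1 of gluconeogenesis had a log2 fold change of -3.48 (SE 0.06). Many of these genes answer to other signals too. Of 13 tested retinoid and thyroid hormone targets 6 rose, 6 fell and 1 did not pass (median 0.29, and also 0.29 with Crabp2 at its bound). Me1, malic enzyme, fell from 426.3 and 418.1 to 209.9 and 205.2 CPM. Of 17 tested PPAR and FXR targets 12 fell, 4 rose and 1 did not pass (median -1.02). Slc27a2, a fatty acid importer, fell from 4208 and 4386 to 679 and 642 CPM. Plin2, a lipid droplet coat gene, rose from 103.5 and 103.4 to 541 and 516 CPM, and Pdk4 had a log2 fold change of 3.21 (SE 0.06) against -1.98 (SE 0.06) for Ehhadh. The organic solute carrier Slc51a, an FXR target named after its values were seen, fell from 56.5 and 52.2 to 8.01 and 6.63 CPM.

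**Figure D4:**
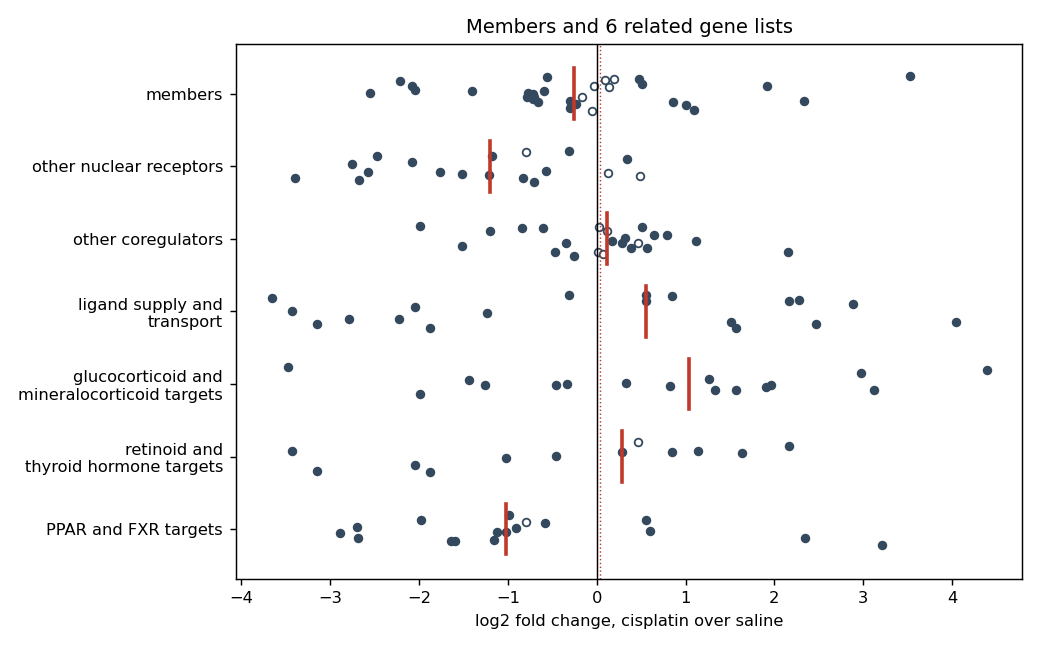
Log2 fold change, cisplatin over saline, of the 30 members and of the tested genes of 6 related lists (points, open where edgeR did not call them), with each list's median (red bar) and the median of all tested genes (dotted line, 0.04). Dio3 and Crabp2, at 0 counts in saline, are left out of the points, and the other nuclear receptors have the lowest median at -1.20.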

How the data were processed

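Kidney RNA was depleted of ribosomal RNA and sequenced from directional libraries, per the labels' protocols. The deposited file of raw read counts per gene was the main input (29190 genes), and the FPKM values deposited by the authors (29157 genes, scaled to gene length and library total) gave levels per length. Per the submitters' processing notes, reads were handled with bcl2fastq and TopHat2 on GRCm38, and edgeR was used, with no version named. Which program counted reads, whether it used strand and which annotation it took were not given in the sources used here.

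Counts were filtered with filterByExpr, scaled by TMM (factors 1.15 and 1.12 for cisplatin, 0.86 and 0.90 for saline) and tested in edgeR 4.0.16 (R 4.3.3) with glmQLFit and glmQLFTest over 4 libraries, with 2 residual degrees of freedom and Benjamini-Hochberg adjustment over 17419 genes. The biological coefficient of variation was 6.4%. A replicate comparison gave a chi-square per degree of freedom of 11.5 (cisplatin) and 36.6 (saline), above sampling noise. A floor of 3 counts is 0.111 to 0.145 CPM before TMM, and it covers counting error only. Alternatives were other scalings, filters, DESeq2 1.42.0, glmTreat, a replicate block, limma-trend (limma 3.58.1) on log2(FPKM + 0.1) and log2(FPKM + 1), and each library left out. The tests were checked on simulated counts. A small set of genes was changed there, as many up as down, so the check does not cover a broad shift between groups or the choice of scaling.

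Coordinates came from GENCODE M21, which matched all 30 genes by identifier without version. Promoter windows of 250 bases were searched on both strands for 11 motifs. These were TGACG, TGACGTCA, paired GTTCA with 6 bases between, the DR5 and DR1 repeats of AGGTCA, the NR4A element AAAGGTCA, the glucocorticoid response element, GTTAAT, the HNF4 element CAAAGTCCA, the AP-1 element TGANTCA and TATAAA. The members, 6 pathway lists and 11 marker lists were chosen with earlier results of these data known. All members are named, with up to 4 called genes of smallest p from each pathway list plus Nr0b2 and Ppargc1a, and some genes that this rule selects are not reported here. Shares and ratios within families were added after the data were seen, with exact permutation tests in scipy 1.17.1. Plots used matplotlib 3.10.9.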

Additional observations from a re-analysis of the deposited data

How the results depend on the processing

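Leaving aside glmTreat, 13 alternatives were run, and direction and call stayed the same in each that tested the gene for 21 of the 30 genes, while 9 changed in at least 1. Nr5a2, among the 21, was too low to be tested with at least 1 CPM required in 2 libraries. Against a 2-fold change glmTreat left 3 genes higher and 5 lower among the members, and 2156 higher and 2089 lower among all genes. It left 0 higher and 9 lower among other nuclear receptors, and 1 and 2 among other coregulators. Retinoid and thyroid hormone targets gave 3 higher and 4 lower, and PPAR and FXR targets 2 higher and 7 lower. With library size alone 4207 of all genes and 5 other coregulators were lower, and 2 other nuclear receptors were higher. With FPKM at a pseudocount of 0.1 or 1 the genes called lower were 3804 and 3784 in all, and 4 and 4 among other coregulators. DESeq2 called 0 other nuclear receptors higher (1 at an unadjusted p under 0.05, and 1 in edgeR). Members at least 2-fold higher numbered 3 with DESeq2, 3 by glmTreat and 1 with FPKM at a pseudocount of 1, and from 3 (without cisplatin replicate 2) to 5 with a library left out. Other nuclear receptors called higher numbered from 0 to 1 with a library left out, being 0, also at an unadjusted p under 0.05, without cisplatin replicate 2 or saline replicate 2.

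Log2 fold changes that turned sign were those of Nr2c1 (0.20 with library size alone, 0.10 and 0.07 with FPKM at the lower and higher pseudocount), Nr2f2 (0.08 under upper-quartile scaling, 0.33 by library size, 0.23 and 0.21 with FPKM), Esrrb (0.07, 0.32, 0.21 and 0.14 in that order), Ncoa3 (0.14 with library size alone, 0.04 and 0.03 with FPKM), Nr6a1 (0.06 with library size alone) and Nrip1 (0.07 with library size alone). With a library left out Nr2f2 ran from -0.11 to 0.04 and Pparg from -0.30 to 0.39. The scaling sets the reference level, and otherwise the cause was not tested. The replicate block gave 8 members higher and 15 lower, against 8 and 16 without it. It changed the call of Nr6a1 (BH-adjusted p = 0.0687 in edgeR). Same-numbered libraries did not deviate together (r = -0.02 across genes). The Nr4a3 value was 1.78 and 0.38 with FPKM at the 2 pseudocounts, which compress low levels. Depth limits Nr5a2, Pparg, Nr2f1, Nr4a2 and Nr4a3, each at most 70 counts in every library.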
